A study of Mus musculus with 36 samples.

Results

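The collagen and laminin chains were followed as 1 family of genes while *Tet1* KO, *Tet1* MUT and WT mouse ESCs were differentiated towards antNPCs. Members were taken by symbol alone, as every gene whose symbol reads Col, a number, a and a number, or Lam, then a, b or c, and a number, so that no measured value entered the choice. The rule took 55 of the 54281 genes in the deposited tables, namely 44 collagen chains and 11 laminin chains. By the structures they are known to build, 19 were grouped as basement membrane chains (the type IV collagens, the laminins and the multiplexins *Col15a1* and *Col18a1*), 11 as fibrillar chains and 25 as other collagens.

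RNA was measured in bulk in 36 libraries from 3 experiments. KO cells came from the male (B6 × 129S6)F1-*Tet1*tm1Koh ESC lines KO1 and KO15, in which *Tet1* is disrupted in every cell, and WT cells from their littermate lines WT7 and WT34. MUT cells came from CM59 and CM69, each 1 clone, which carry a catalytically dead TET1 that was edited into WT7. WT70 is a further line labelled WT, and the labels do not say whether it is one of the mock-transfected clones that were made beside the MUT clones. All lines were grown on inactivated embryonic fibroblasts, depleted of these feeders by replating, and moved to serum-free N2B27 medium, with bFGF until day 3 and without it afterwards. KO and WT had 2 libraries each on days 0, 1, 2 and 4, 4 each on day 3 and 3 each on day 5. MUT had 2 libraries on each of days 3 and 5, against 1 WT70 library per day. Day 0 was in experiment 1, days 1, 2 and 4 in experiment 2, days 3 and 5 in both, and MUT and WT70 in experiment 3. Values of 1 group are listed in the order KO1, KO15 or WT7, WT34, experiment 1 before experiment 2, and CM59 before CM69.

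A laminin is a trimer of 1 alpha, 1 beta and 1 gamma chain that self-assembles into the first sheet of a basement membrane, and laminin-111 (*Lama1*, *Lamb1*, *Lamc1*) is the form laid down by the earliest embryonic epithelia. Type IV collagen then forms a second network that stabilises the sheet, mostly as trimers of the *Col4a1* and *Col4a2* chains. Fibrillar collagens such as types I, II, III and V build the fibres of mesenchyme and cartilage, and the other collagens decorate fibres, span membranes or form short networks.

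Libraries held 10.1 to 26.3 M counts (median 14.6 M), and between 46 and 55 members had at least 1 count in a library. *Tet1*, the targeted gene, stood at 28.9 to 83.1 CPM (counts per 1000000, scaled between libraries) over the 15 KO libraries, 158 to 319.7 over the 4 MUT libraries, 108 to 1432 over the 15 WT libraries and 169.5 and 253.8 in the WT70 libraries, and every KO library was below every WT library of its day. On day 5 the summed level of 9 neural progenitor markers was 59.1, 79.1 and 115 CPM in KO, 392 and 453 in MUT, 391, 443 and 500.0 in WT and 608 in WT70, so the KO cultures were low in these genes. Before differentiation, on day 0, the sum was already 512.8 and 554.2 CPM in KO and 585.6 and 525.5 in WT. It therefore cannot show whether the antNPC label held on day 5. A set of 12 mesoderm markers summed on day 5 to 537, 476 and 621 CPM in KO, 240.5 and 226 in MUT, 32.9, 31.1 and 119 in WT and 94.1 in WT70. The third WT library of day 5 (WT7, experiment 2) stood apart from the other WT libraries in these markers, and results of that day are given without it where it matters. Its 8 definitive endoderm markers summed to 179 CPM, against 34.5 and 35.6 in the other WT libraries and 522 to 556 in KO. On day 0 these markers summed to 157 and 111.5 CPM in KO and 319 and 324.5 in WT, so the sum is not specific to endoderm here. In bulk RNA, fewer cells of a type and less RNA per cell cannot be told apart.

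Promoters are shown for 2 members that share a start and for 2 with large genotype differences, from 250 bases before to 50 bases after the gene start (RefSeq, GRCm38.p6). A window was found for 40 of the 55 members (44 windows), and the other 15 have none here. Capitals mark 3 motifs on either strand, namely GGGCGG or CCGCCC (the GC box bound by Sp1-family factors), CCAAT or ATTGG (the CCAAT box) and TATAAA or TTTATA (the TATA box). *Col4a1* and *Col4a2* lie head to head on chromosome 8, with gene starts 21 bases apart so that their first bases overlap, and their windows share 78 bases. The first pair is the *Col4a2* window, chr8:11312555-11312854 on the plus strand, and the *Col4a1* window, chr8:11312777-11313076 on the minus strand. The other pair is *Col13a1*, chr10:61979059-61979358 on the minus strand, and *Col23a1*, chr11:51289670-51289969 on the plus strand, the collagens with large KO and MUT differences on day 5.
Col4a2: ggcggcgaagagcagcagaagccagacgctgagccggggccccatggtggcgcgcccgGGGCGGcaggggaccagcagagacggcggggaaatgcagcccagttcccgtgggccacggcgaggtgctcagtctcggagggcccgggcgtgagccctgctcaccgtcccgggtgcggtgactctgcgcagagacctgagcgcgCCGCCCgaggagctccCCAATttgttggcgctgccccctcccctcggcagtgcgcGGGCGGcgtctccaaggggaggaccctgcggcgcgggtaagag
Col4a1: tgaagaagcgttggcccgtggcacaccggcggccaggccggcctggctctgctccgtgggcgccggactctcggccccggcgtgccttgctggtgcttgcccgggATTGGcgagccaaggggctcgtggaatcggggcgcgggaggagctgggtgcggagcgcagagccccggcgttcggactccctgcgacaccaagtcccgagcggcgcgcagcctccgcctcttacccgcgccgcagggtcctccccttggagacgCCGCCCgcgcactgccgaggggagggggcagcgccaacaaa
Col13a1: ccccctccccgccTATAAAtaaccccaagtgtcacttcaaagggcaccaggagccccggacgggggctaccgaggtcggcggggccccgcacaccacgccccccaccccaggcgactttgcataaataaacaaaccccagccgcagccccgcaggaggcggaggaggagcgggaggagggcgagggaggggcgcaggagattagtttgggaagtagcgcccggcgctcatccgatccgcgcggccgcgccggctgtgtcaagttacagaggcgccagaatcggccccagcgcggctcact
Col23a1: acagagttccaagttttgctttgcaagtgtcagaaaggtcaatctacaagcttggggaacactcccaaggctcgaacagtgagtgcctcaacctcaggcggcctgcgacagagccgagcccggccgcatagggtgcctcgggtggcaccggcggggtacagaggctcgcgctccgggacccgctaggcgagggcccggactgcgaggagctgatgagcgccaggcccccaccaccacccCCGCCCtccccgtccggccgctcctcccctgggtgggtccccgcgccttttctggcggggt
The windows hold 33, 37, 29 and 24 CpG dinucleotides in this order, against a median of 7 over all 32851 RefSeq windows and 10.5 over the member windows. A GC box stands in 26 of the 44 member windows (59.1%) and in 35.7% of all windows, a CCAAT box in 31.8% and 37.4%, and a TATA box in 11.4% and 13.6%. The *Col4a2* window has 3 GC boxes and 1 CCAAT box, *Col4a1* 1 of each, *Col13a1* 1 TATA box and *Col23a1* 1 GC box. These matches describe letters in the windows only, and no methylation or binding was measured here.

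Compared per length, in TPM, the family was dominated by basement membrane chains, which made up 73.6 to 94.4% (median 91.7%) of the summed TPM of all members over the 36 libraries. The fibrillar chains made up 1.90 to 13.4% and the other collagens 2.47 to 13.0%. *Col4a1* had the highest mean TPM of all chains in 12 of the 16 groups, *Col18a1*, the core of a basement membrane proteoglycan and precursor of endostatin, in 3, and *Lamc1* in 1. A mean of at least 10 TPM in some group was reached by 11 members, and 19 never reached 1 TPM. The summed TPM of the family was lowest on day 1, at 197 to 212 in KO and 188 to 241 in WT, and stood at 469 to 629.9 in KO, 590.2 to 710.2 in MUT, 364 to 464 in WT and 504 in WT70 on day 5.

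**Figure D1:**
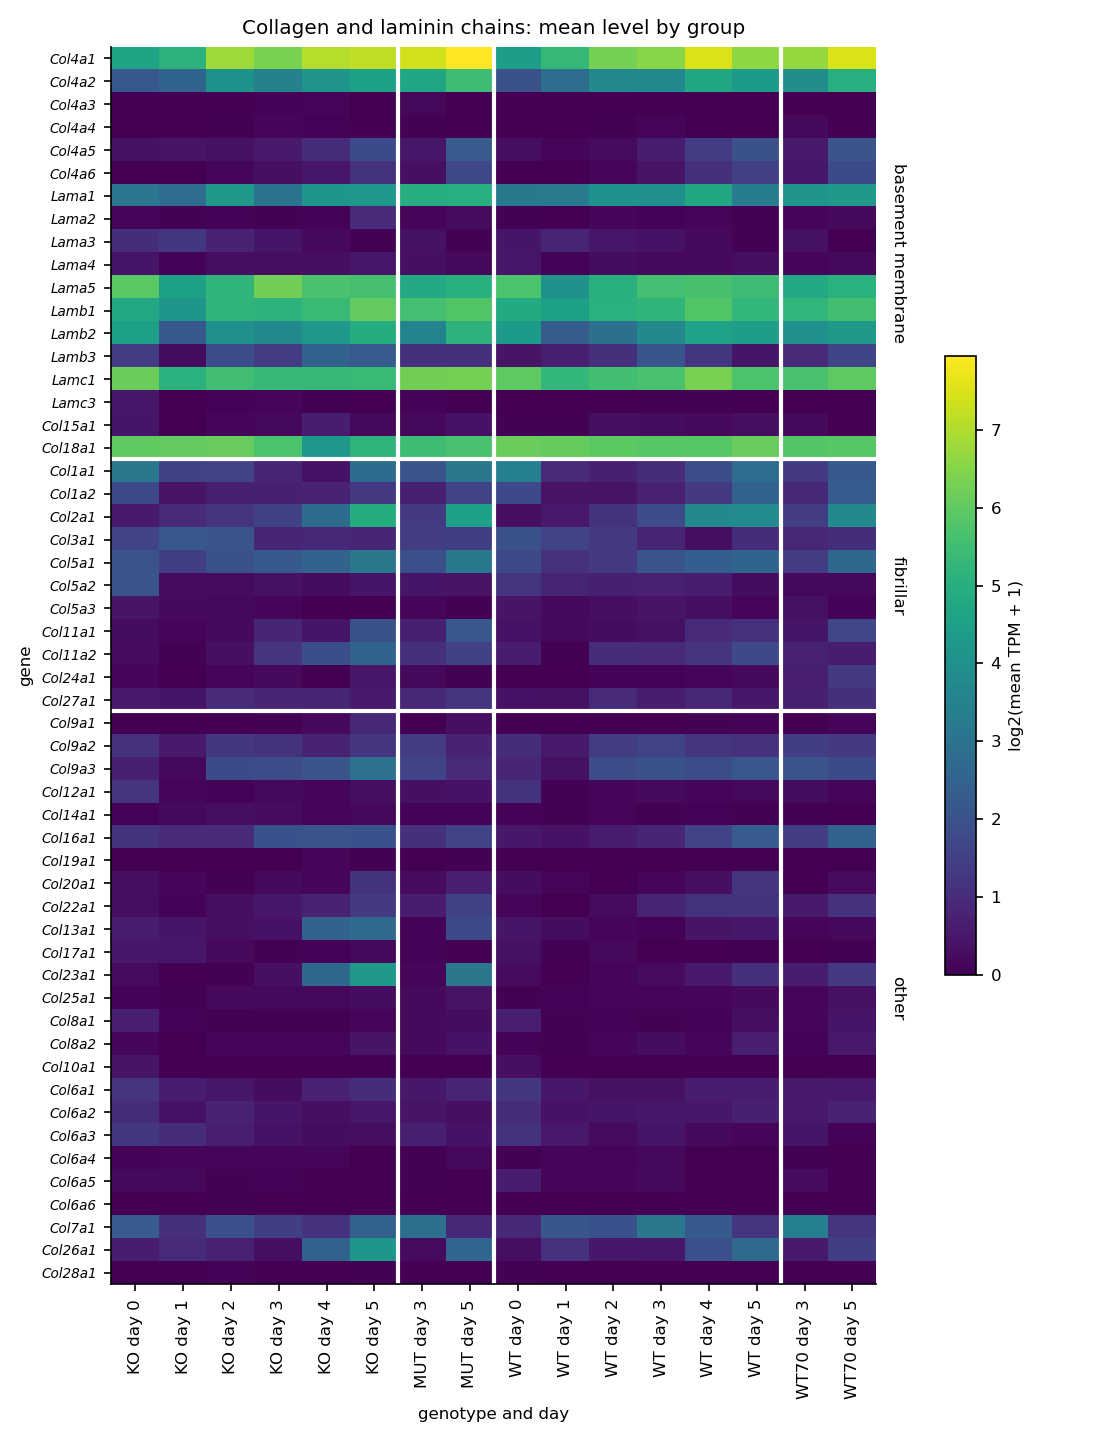
Mean level of 54 of the 55 chains, as log2(mean TPM + 1), by genotype and day, with rows grouped as basement membrane, fibrillar and other chains. The bright rows are *Col4a1*, *Lama5*, *Lamb1*, *Lamc1* and *Col18a1*, while 19 members stay below 1 TPM in every group.

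Tests ran on counts over 21601 genes. A gene is said to have passed, risen or fallen where its log2 fold change exceeded 1 in size and edgeR's quasi-likelihood test gave an adjusted p below 0.05. Of the 55 members 52 were tested. *Col4a3*, *Col6a6* and *Col28a1* were too low, with at most 0.646, 0.470 and 0.375 CPM in any library. Replicates are libraries of 2 lines, and lines recur over days and experiments, so p-values measure the spread between these libraries.

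The time course changed the family in both genotypes. Between days 3 and 0, 8 members were higher and 20 lower in KO cells, with 10.8% and 10.4% of all tested genes called higher and lower, and 12 were higher and 15 lower in WT cells (background 12.9% and 9.62%). The median log2 fold change of the 52 members was -0.05 in KO and -0.27 in WT, against 0.04 over all genes in each. Between days 5 and 3, 26 members were higher and 6 lower in KO cells (background 11.4% and 10.9%), and 17 were higher and 7 lower in WT cells (background 7.49% and 7.99%), with medians of 1.02 and 0.41 beside -0.02 and 0.01 over all genes.

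The fall after day 0 was led by fibrillar and other collagens. Among other collagens 10 of 23 tested members fell in each genotype, and among fibrillar chains 5 of 11 fell in KO and 4 of 11 in WT. *Col1a1*, the main chain of type I collagen, had 3.38, 2.42, 3.58 and 4.73 CPM on day 3 in KO cells, against 40.2 and 26.0 on day 0. In WT cells it had 3.95, 5.03, 3.75 and 5.02 CPM on day 3, against 38.6 and 37.0 on day 0. Every day 3 library was below every day 0 library of its genotype, with log2 fold changes of -3.45 ± 0.25, adjusted p = 3.34e-11 in KO and -3.30 ± 0.25, adjusted p = 4.10e-11 in WT (± SE). *Col1a2*, its partner chain, fell by 2.62 on the log2 scale in KO and by 2.24 in WT, *Col3a1* (type III) by 2.46 in KO and 3.20 in WT, and the beaded-filament chains *Col6a1*, *Col6a2* and *Col6a3* by 1.43 to 3.40 in both genotypes. *Col12a1*, which sits on the surface of type I fibres, fell by 4.16 in KO and 3.71 in WT, and *Col5a2*, a chain that regulates fibre width, by 3.59 in KO and 2.13 in WT. Feeder fibroblast transcripts moved in both directions over this interval. Of 12 feeder markers 1 was called higher and 5 lower in KO, and 2 higher and 5 lower in WT. *Postn* had at most 0.655 CPM in the 8 libraries of day 3, against 5.91 and 5.81 CPM in KO and 4.99 and 6.04 in WT on day 0. *Prrx1* had at most 2.24 CPM on day 3, against 12.0 and 9.90 CPM in KO and 13.0 and 14.5 in WT on day 0. *Mfap5* and *Pdgfrb* also fell in both genotypes, *Acta2* in KO and *Lum* in WT, while *Tagln* rose in KO (1.48 ± 0.22) and in WT (2.36 ± 0.23) and *Thy1* in WT (1.34 ± 0.29). The sum over the 12 markers, which holds genes that other cells express too, was 105 to 129 CPM in KO and 140.0 to 197 in WT on day 3, against 143 to 151 in KO and 136 to 144 in WT on day 0. The sum was thus lower on day 3 in KO and not in WT, and the part of feeders in the fall of the collagens was not tested.

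Several type IV chains were higher on day 3 than on day 0. *Col4a1* rose between days 3 and 0 in KO (1.09 ± 0.35, adjusted p = 0.0128) and in WT (1.41 ± 0.36, adjusted p = 0.00204), although the WT call was lost without WT7 on day 0 (0.98, adjusted p = 0.0782) and the KO call without either day 0 library (adjusted p = 0.0616 and 0.0906). *Col4a2* rose in WT (1.23 ± 0.38), where the call was lost without WT7 on day 0 (0.87, adjusted p = 0.160), and had 0.69 ± 0.37, adjusted p = 0.143 in KO. *Col4a6*, which pairs with *Col4a5* in the type IV network of epithelia, had 310 counts in WT cells over the 4 day 3 libraries and 0 on day 0, at least 39.7-fold higher (bound from 3 counts over the group, counting error only). In KO cells it had 4.44, 2.55, 3.64 and 3.71 CPM on day 3, against 0.356 and 0.157 on day 0. *Col4a4*, a chain of the kidney type IV network, had 104 counts on day 3 and 0 on day 0 in WT (at least 13.3-fold higher), and 3 counts on day 5. *Col4a5* and *Col4a6* both rose again between days 5 and 3, by 2.47 ± 0.18 and 2.20 ± 0.19 in KO and by 2.55 ± 0.18 and 2.40 ± 0.19 in WT. They too lie head to head, on the X chromosome with starts 1343 bases apart.

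Fibrillar chains were higher again on day 5. In WT cells 6 of 11 rose and 1 fell against day 3, and in KO cells likewise 6 rose and 1 fell. *Col2a1*, the collagen of cartilage and notochord, rose by 3.97 ± 0.28 in KO and 2.25 ± 0.27 in WT, where it rose by 1.45 within experiment 1 and by 3.42 within experiment 2. *Col11a1*, which co-assembles with it, rose by 2.37 ± 0.25 in KO and 1.76 ± 0.26 in WT. *Col1a1* rose by 2.86 ± 0.23 in KO and 2.47 ± 0.22 in WT. *Col3a1* was not called in either genotype (0.13 ± 0.34, adjusted p = 0.793 in KO and 0.62 ± 0.35, adjusted p = 0.155 in WT).

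More members differed between genotypes on the later days. KO against WT called 2 members higher and 0 lower on day 0 (background 0.569% higher and 0.296% lower), 1 and 0 on day 1 (0.292% and 0.343%), and 0 and 0 on day 2 (0.417% and 0.199%), where 13 of 52 had an unadjusted p under 0.05 and DESeq2 called 1. It called 3 higher and 4 lower on day 3 (2.09% and 1.87%), 7 and 8 on day 4 (3.40% and 4.28%), and 14 and 7 on day 5 (5.99% and 5.73%). On day 5 these were 4 higher and 2 lower of 18 tested basement membrane chains, 2 and 3 of 11 fibrillar chains, and 8 and 2 of 23 other collagens. The median log2 fold change of the members was -0.26 on day 4 and 0.52 on day 5, against 0.00 and -0.01 over all genes. Day 4 was lowest among fibrillar chains, with a median of -0.75. Without the WT library that stood apart, day 5 called 12 higher and 6 lower (17 of these 18 also called with it). Within experiment 1 alone it called 12 and 6, and within experiment 2, with 1 library each, 10 and 2. Calls of day 5 that were lost within experiment 2 alone include *Lama1* (0.59, adjusted p = 0.680), *Lama4* (0.59, adjusted p = 0.583), *Col5a2* (-1.06, adjusted p = 0.509), *Col9a1* (3.34, adjusted p = 0.110) and *Col8a1* (-2.31, adjusted p = 0.235), and *Col18a1* fell short of the fold threshold there (-0.77, adjusted p = 0.00180). Members are named by a mean of at least 5 CPM in the higher group. Those named under it were chosen after their values were seen. They are *Lama4*, *Col4a4*, *Col5a2*, *Col5a3*, *Col6a3*, *Col6a5*, *Col8a1*, *Col8a2*, *Col9a1*, *Col14a1*, *Col17a1*, *Col19a1*, *Col24a1* and *Col25a1*. They also include *Col4a6* on days 0 and 3, and *Lama2*, *Col13a1* and *Col26a1* on days 3 or 4.

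Of the major type IV chains, neither *Col4a1* nor *Col4a2* was called between KO and WT on any day. On day 3 *Col4a1* had 188, 186, 278 and 327 CPM in KO and 148, 216, 277 and 500.1 in WT, and on day 5 374, 398 and 558 in KO and 209, 249 and 396 in WT. The groups overlapped on both days, and the log2 fold changes were -0.17 ± 0.26, adjusted p = 0.745 and 0.67 ± 0.30, adjusted p = 0.0926. Lines of 1 genotype also differed. WT34 was above WT7 in 7 of 7 pairs of the same day and experiment for *Col4a1* (median 1.81-fold), *Col4a2* (1.74-fold) and *Lama1* (1.62-fold). The summed level of 12 parietal and visceral endoderm markers was higher in WT34 in the same 7 pairs (1.61-fold). KO15 was above KO1 in 5 of 7 pairs for *Col4a1* (median 1.06-fold) and *Col4a2* (1.05-fold), in 6 of 7 for *Lama1* (1.36-fold, up to 2.81-fold) and in 5 of 7 for the endoderm markers (1.17-fold, up to 2.79-fold). The part of these endoderm markers in the spread was not tested. The *Col4a2* CPM was 0.381 to 0.712 times that of *Col4a1* (median 0.500) over the 36 libraries, while the CPM of *Col4a1* itself ran between 50.9 and 875. Per length, in TPM, the ratio was 0.0945 to 0.223 (median 0.149). The CPM ratio was highest in WT on day 5, at 0.631 to 0.712, against 0.490 to 0.569 in KO on that day.

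Of the 5 laminin alpha chains, *Lama1* and *Lama2* were called between KO and WT on day 3, *Lama2* on day 4, and *Lama1*, *Lama2* and *Lama4* on day 5. *Lama1*, the alpha chain of laminin-111, had 26.8, 38.4, 151 and 238 CPM in KO and 52.3, 130.1, 229 and 453 in WT on day 3, so that experiment 2 lay above experiment 1 in both genotypes and the groups overlapped. Its log2 fold change was -1.07 ± 0.36, adjusted p = 0.0409, with -1.48 (adjusted p = 0.00881) in experiment 1 and -0.79 (adjusted p = 0.449) in experiment 2. On day 5 it had 235, 213 and 356 CPM in KO and 85.5, 105 and 236 in WT, a rise of 1.09 ± 0.41, adjusted p = 0.0446. Again 1 WT library reached the KO range. The day 3 call was lost without either KO library of experiment 1, without KO1 of experiment 2, or without either WT34 library (-1.06 to -0.79, adjusted p = 0.0835 to 0.204). The day 5 call was lost without any 1 library other than KO1 of experiment 2 (0.88 to 1.28, adjusted p = 0.0527 to 0.163). On day 3 the endoderm markers moved with *Lama1* by library, at 32.3, 38.2, 93.0 and 133 CPM in KO and 36.7, 58.9, 139 and 249 in WT. On day 5 they had 276, 232 and 263 CPM in KO and 51.0, 61.3 and 106 in WT, and followed the library order of *Lama1* in WT only. On day 0 they had 46.0 and 53.7 CPM in KO and 49.4 and 96.8 in WT. On day 1 they had 236 and 222 in KO and 281.5 and 383 in WT. *Lama1* had 132 and 138 CPM on day 0 and 123 and 130 on day 1 in KO. In WT it had 126 and 178 on day 0 and 128 and 207 on day 1. *Cubn* alone had 158 and 151.5 CPM in KO and 175 and 253.5 in WT on day 1, against 12.8, 10.5 and 53.1 in KO on day 5. The sum thus rests on different genes on different days. It also holds *Gata6*, which stands in the definitive endoderm list too. The part of these endoderm markers in the *Lama1* result was not tested. The change of the KO effect from day 3 to day 5 was itself called (2.16 ± 0.54, adjusted p = 0.00459), though not within experiment 2 (1.38, adjusted p = 0.400).

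**Figure D2:**
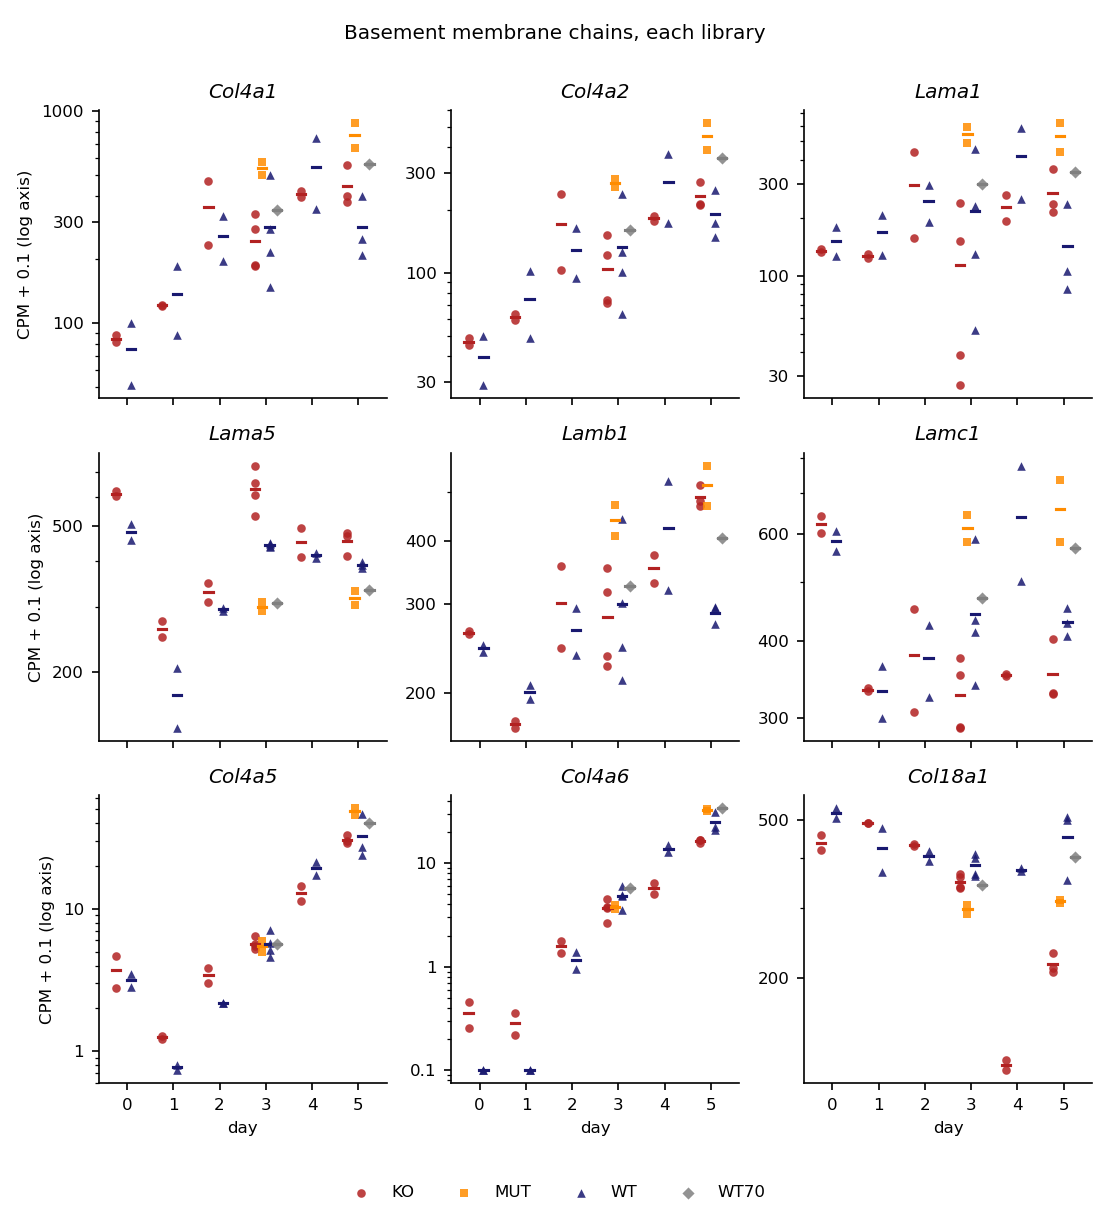
CPM + 0.1 (log axis) of 9 basement membrane chains in each library by day, with KO, MUT, WT and WT70 side by side and bars at the group means. *Col4a1*, *Col4a2* and *Lama1* spread widely within WT and KO, while *Col18a1* of KO drops below all WT libraries on days 4 and 5.

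*Lama2*, the alpha chain of muscle and nerve basement membranes, was at 1.52 CPM or less in every KO and WT library before day 5. It then had 11.2, 9.83 and 17.8 CPM in KO and 0.151, 0.154 and 0.607 in WT, so that every KO library was above every WT library, and the log2 fold change was 5.33 ± 0.57, adjusted p = 7.11e-08. It had also passed on day 3 (1.82 ± 0.58), a call lost without KO15 or WT7 of experiment 1 or without either WT library of experiment 2 (adjusted p = 0.0570 to 0.158) and within experiment 2 alone (1.75, adjusted p = 0.341). It passed again on day 4, where 27 counts in KO and 3 in WT gave a ratio of 9.01 (95% interval 2.77 to 46.4, counting error only) and the call was lost without KO1 or without WT34 (adjusted p = 0.103 and 0.214). In TPM the sign of *Lama2* turned on days 3 and 4 (-0.023 and -0.063 on the log2(TPM + 1) scale by limma with no filter), with 0.0240 to 0.0735 TPM in KO and 0.00978 to 0.105 in WT on day 3. *Lama5*, the most abundant alpha chain of many epithelia, was higher in KO on day 3 without reaching the fold threshold, at 729.5, 654, 606 and 531 CPM in KO and 442, 448, 446 and 437 in WT. No KO library overlapped the WT libraries there (0.50 ± 0.08, adjusted p = 1.21e-04). On day 5 it had 0.21 ± 0.10, adjusted p = 0.105. *Lama3*, an alpha chain of skin-type laminin, was higher in KO on day 0 (10.5 and 16.1 CPM in KO and 3.97 and 5.50 in WT, 1.47 ± 0.34, adjusted p = 0.0113), a call lost without KO15, WT7 or WT34 (1.13, 1.26 and 1.73, adjusted p = 0.208, 0.152 and 0.0535). The other member called on day 0, *Col4a6*, had 7 counts in KO and 0 in WT (at least 2.30-fold higher), and was lost without any 1 library.

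A beta chain also diverged. *Lamb3*, which joins *Lama3* in skin-type laminin, had 21.1, 18.8 and 14.2 CPM in KO and 1.67, 2.32 and 3.98 in WT on day 5 (2.78 ± 0.28, adjusted p = 2.03e-08), and 21.1 and 17.8 in KO and 3.64 and 6.48 in WT on day 4 (1.94 ± 0.32). On day 3 it was not called (-0.31 ± 0.22, adjusted p = 0.395), with 6.96, 6.35, 9.74 and 10.2 in KO and 11.0, 11.2, 8.18 and 10.6 in WT, and the KO effect changed by 3.10 ± 0.35, adjusted p = 3.73e-07 between days 3 and 5. *Lama3* itself was low on the later days. It had 1.30 and 2.00 CPM in KO and 1.34 and 1.55 in WT on day 4. On day 5 it had 0.798, 0.474 and 0.0937 in KO and 0.227, 0.386 and 0.539 in WT.

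Among the common laminin chains, *Lamc1*, the gamma chain of most trimers, was lower in KO on day 4 at 353 and 352 CPM, against 503 and 776 in WT (-0.86 ± 0.18, adjusted p = 0.00114), short of the fold threshold. *Lamb1*, the common beta chain, was higher in KO on day 5 at 479.7, 470.1 and 516 CPM, against 274, 296 and 295 in WT, also short of it (0.76 ± 0.17, adjusted p = 9.14e-04). The libraries did not overlap in either case. On the count scale the ratio of *Lamb1* to *Lamc1* was thus 1.28 to 1.46 in KO and 0.651 to 0.693 in WT on day 5. *Lama4*, an alpha chain of vessel walls, was higher in KO on day 5, at 7.04, 4.56 and 2.44 CPM in KO and 1.44, 1.47 and 1.62 in WT (1.60 ± 0.30). The 6 endothelial markers summed to 73.8, 54.1 and 91.7 CPM in KO and 6.66, 5.41 and 11.2 in WT on that day. On day 0 they had already summed to 71.2 and 71.2 CPM in KO and 57.7 and 56.4 in WT. The sum alone therefore cannot identify endothelium, and the part of these markers was not tested.

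*Col18a1*, the type XVIII chain, fell in KO on days 4 and 5. On day 4 it had 124 and 117 CPM in KO and 372 and 377 in WT (-1.64 ± 0.10, adjusted p = 2.33e-11), and on day 5 231, 212 and 207 in KO and 499, 507 and 352 in WT (-1.05 ± 0.08, adjusted p = 1.64e-10). Every KO library was below every WT library on both days, and the third WT library of day 5 was the lowest of its group. On days 0 to 3 the genotypes differed by -0.25 to 0.21 on the log2 scale, with no call. The day 5 value lay close to the fold threshold, and it fell short of it without KO15 of experiment 1 (-0.99), without WT7 (-0.99) or without WT34 (-0.98) of that experiment, with adjusted p of at most 7.89e-09.

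The chains of type I collagen differed from each other in KO. *Col1a1* was not called on day 5, at 20.1, 24.8 and 28.2 CPM in KO and 20.2, 17.9 and 34.5 in WT (0.04 ± 0.22, 95% interval -0.38 to 0.46). *Col1a2*, whose product joins a pair of *Col1a1* chains in the common trimer, had 11.0, 11.0 and 20.8 CPM in KO and 47.8, 51.8 and 54.7 in WT (-1.86 ± 0.28, adjusted p = 9.03e-06), with no overlap, and -1.40 (adjusted p = 0.0721) within experiment 2. The CPM ratio of *Col1a2* to *Col1a1* was 0.443 to 0.738 in the 3 KO libraries and 1.58 to 2.89 in the 3 WT libraries of day 5. *Col1a2* had already passed on day 4, at 4.31 and 4.53 in KO and 14.0 and 14.9 in WT (-1.71 ± 0.38), where *Col1a1* had -0.78 ± 0.32, adjusted p = 0.102. On day 3 neither was called (-0.57 ± 0.27, adjusted p = 0.179 for *Col1a2* and -0.34 ± 0.23, adjusted p = 0.375 for *Col1a1*), and the KO effect on *Col1a2* changed by -1.29 ± 0.39, adjusted p = 0.0168 from day 3 to day 5, a call lost without KO1 or without KO15 of experiment 1 on day 5 (adjusted p = 0.0570 and 0.0564).

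Of the other fibrillar chains, *Col2a1* was higher in KO on day 5 at 154, 146 and 362 CPM, against 66.1, 79.5 and 157 in WT (1.12 ± 0.28, adjusted p = 0.00274). The second KO1 library was far above the others and the third WT library lay among the KO values. *Col11a1* followed with 22.9, 15.6 and 51.6 in KO and 10.5, 12.0 and 20.9 in WT (1.01 ± 0.26, adjusted p = 0.00430). Both calls were lost without that KO library (0.56, adjusted p = 0.129 for *Col2a1*, and 0.47, adjusted p = 0.166 for *Col11a1*). Without WT7 of experiment 1 both slipped under the fold threshold (0.93 and 0.90), and *Col11a1* also without WT34 (0.97). The 6 notochord markers summed to 189.8, 229 and 344 CPM in KO and 18.6, 19.5 and 139 in WT, with libraries listed in the same order. They include *T* and *Foxa2*, which the paper uses as primitive streak markers. On day 3 the sum was already 267 to 299 CPM in KO, against 12.9 to 15.6 in WT. The sum alone therefore cannot identify notochord, and the part of these markers was not tested. *Col2a1* ran the other way on day 4 without a call (-0.75 ± 0.35, adjusted p = 0.158), while these markers summed to 577 and 626 CPM in KO and 87.6 and 90.35 in WT. The KO effect on *Col2a1* changed by 1.71 ± 0.39, adjusted p = 0.00175 from day 3 to day 5. *Col3a1* had -0.03 ± 0.36 on day 5 (95% interval -0.74 to 0.68). The minor chains *Col5a2* and *Col5a3* fell on days 3, 4 and 5, although the day 4 call of *Col5a2* was lost without any 1 library (adjusted p = 0.0650 to 0.255). On day 5 there were 0.532, 0.533 and 1.12 CPM in KO and 2.57, 3.48 and 2.36 in WT for *Col5a2* (-1.98 ± 0.47), with no overlap. In TPM the sign of *Col5a2* on day 5 turned, at 0.0396, 0.231 and 0.861 TPM in KO and 0.187, 0.243 and 0.184 in WT. On the count scale *Col5a3* had 0.0665, 0.237 and 0.0937 CPM in KO and 0.833, 1.31 and 1.42 in WT (-3.00 ± 0.49).

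**Figure D3:**
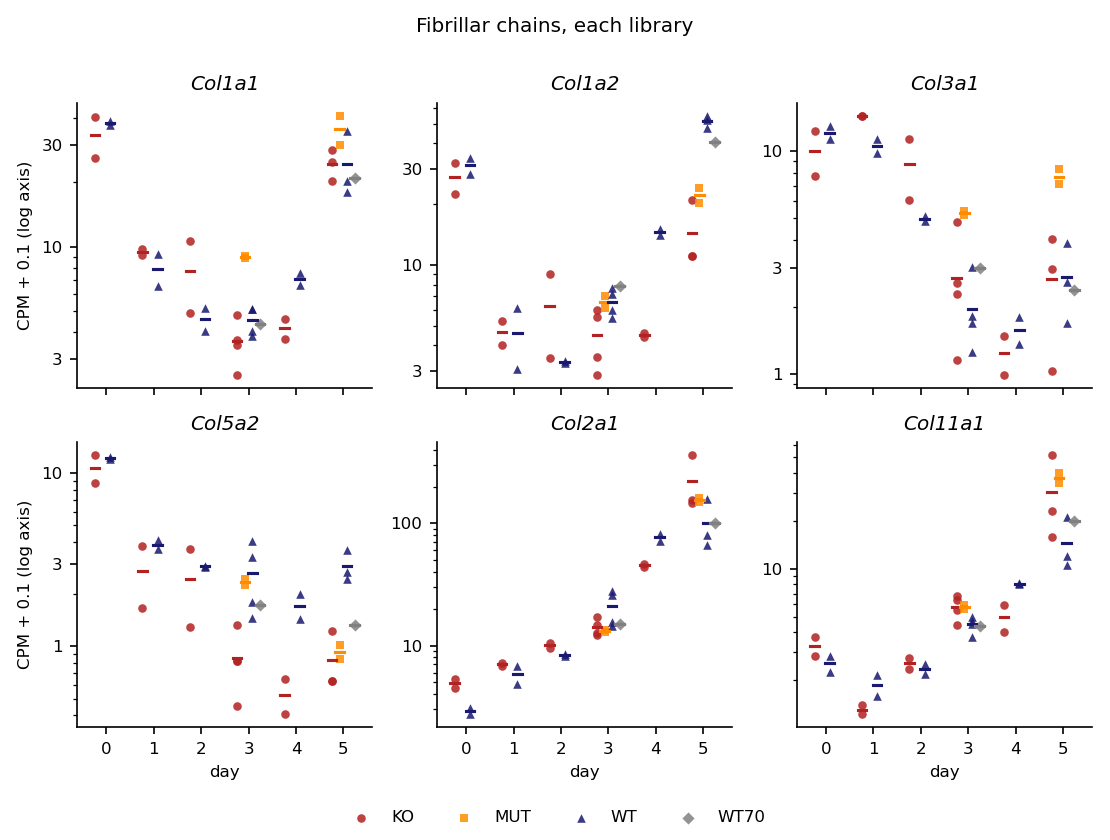
CPM + 0.1 (log axis) of 6 fibrillar chains in each library by day, with bars at the group means. *Col1a1* of KO and WT overlap on day 5 while *Col1a2* of KO and MUT lies below WT and WT70, and *Col5a2* of KO lies below WT from day 3.

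Of the 4 transmembrane collagens 3 rose in KO on days 4 and 5, namely *Col13a1*, *Col23a1* and *Col17a1*. *Col13a1*, found at cell adhesions and the neuromuscular junction, had 26.6 and 29.7 CPM in KO and 1.11 and 1.13 in WT on day 4 (4.64 ± 0.41, adjusted p = 8.71e-09), and 29.0, 29.4 and 38.1 in KO and 0.833, 0.850 and 5.19 in WT on day 5 (4.05 ± 0.32, adjusted p = 3.25e-10). The WT library that stood apart was the only WT library above 1.13 CPM on these days, and without it the day 5 value was 5.07. It was already called on day 3 at 1.39, 1.05, 1.88 and 1.77 in KO and 0.139, 0.216, 0.150 and 0.591 in WT (2.33 ± 0.39). *Col23a1*, another single-pass membrane collagen, had 36.2 and 31.8 CPM in KO and 6.24 and 4.86 in WT on day 4 (2.62 ± 0.44) and 77.9, 88.4 and 184 in KO and 2.04, 3.48 and 19.1 in WT on day 5 (4.03 ± 0.36, adjusted p = 3.25e-09). No KO library overlapped WT, and on day 3 the groups did overlap, with 2.25, 1.24, 2.06 and 1.48 in KO and 1.73, 0.647, 2.25 and 1.03 in WT. *Col26a1*, a short secreted collagen that spans no membrane, rose on day 4 at 3.42 and 5.14 in KO and 1.86 and 0.915 in WT (1.62 ± 0.39), a call lost without KO15 or WT34 (adjusted p = 0.0633 and 0.0984), and on day 5 at 15.6, 19.9 and 24.6 in KO and 7.27, 4.33 and 11.8 in WT (1.41 ± 0.27, adjusted p = 2.36e-04), though not within experiment 2 (1.06, adjusted p = 0.170). *Col17a1*, the hemidesmosome collagen, was called higher on days 1, 4 and 5 but had 14 counts in KO and 3 in WT on day 5 (ratio 4.49, 95% interval 1.25 to 24.4, counting error only). Each of its calls was lost without some 1 library (adjusted p up to 0.222 on day 1, 0.171 on day 4 and 0.0994 on day 5). The other transmembrane chain, *Col25a1*, was not called on any day.

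Among the chains that coat type II fibres, *Col9a1* and *Col9a3* rose in KO on day 5. *Col9a3* had 16.3, 16.9 and 17.7 CPM in KO and 11.0, 6.88 and 5.73 in WT (1.12 ± 0.20, adjusted p = 7.12e-05), short of the fold threshold without the WT library that stood apart (0.93). *Col9a1* had 4.79, 4.09 and 5.53 in KO and 0.151, 0.154 and 0.539 in WT (4.23 ± 0.64). The KO libraries were above all WT libraries for both chains. *Col9a2*, the remaining chain of type IX collagen, overlapped at 5.58, 3.38 and 10.5 in KO and 4.92, 6.26 and 2.70 in WT, after a fall on day 4 (-1.26 ± 0.38) that was lost without either KO library or without WT34 (adjusted p = 0.113 to 0.213). *Col14a1* rose on day 3 (2.29 ± 0.43) and on day 5, at 1.53, 1.12 and 0.656 CPM in KO and 0.0757, 0.0773 and 0.539 in WT (2.36 ± 0.55), where it had 0.28 (adjusted p = 0.900) within experiment 2 and 3.70 without the WT library that stood apart. *Col6a3* rose and *Col8a1* and *Col6a5* fell on day 5, and *Col19a1* rose and *Col24a1* fell on day 4. *Col6a5* had 0 counts in KO and 7 in WT (at least 2.43-fold lower), and *Col19a1* 18 in KO and 0 in WT (at least 6.00-fold higher). The calls of *Col6a3*, *Col6a5*, *Col19a1* and *Col24a1* were each lost without at least 1 library, with adjusted p up to 0.239, 0.295, 0.0691 and 0.125 in this order. *Col4a6* fell on day 4 at 6.36 and 4.99 CPM in KO and 14.8 and 12.7 in WT (-1.27 ± 0.25, adjusted p = 6.84e-04). On day 5 its libraries were still separate, at 16.8, 15.8 and 16.8 in KO and 22.3, 21.0 and 30.9 in WT, with a log2 fold change of -0.59 ± 0.19, adjusted p = 0.0195.

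**Figure D4:**
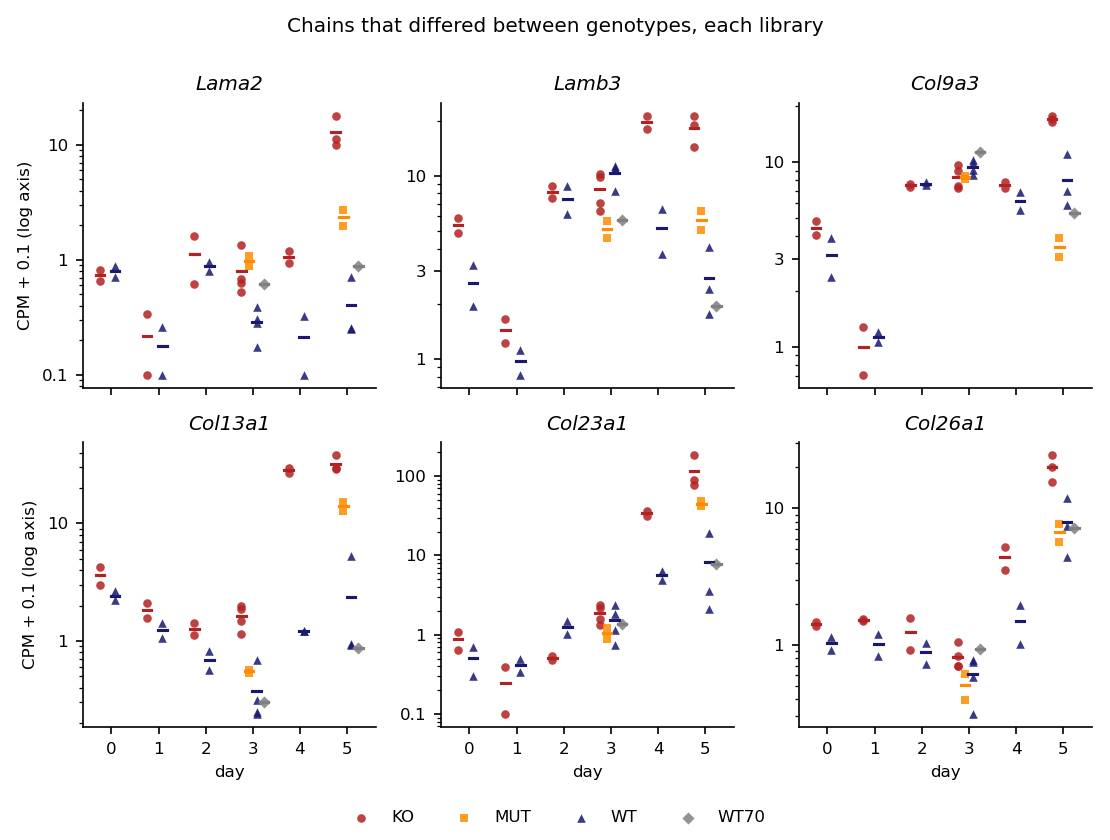
CPM + 0.1 (log axis) of 6 chains that passed between KO and WT on day 4 or 5, in each library by day, with bars at the group means. *Col13a1* and *Col23a1* of KO lie far above WT on days 4 and 5, and MUT lies between KO and WT70 on day 5 for both.

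MUT against WT70 addresses loss of the catalytic activity with the TET1 protein kept. Line and genotype cannot be told apart in it, since MUT is 2 clones made from WT7 and WT70 is 1 line of unstated origin. On day 3 MUT against WT70 called 0 members in either direction by edgeR (background 0.0463% higher and 0.102% lower), with 3 at an unadjusted p under 0.05 and 0 by DESeq2. On day 5 it called 4 higher and 2 lower (background 1.26% and 0.611%). The spread of the lone WT70 library was taken from the other groups. *Col13a1* had 15.1 and 12.8 CPM in MUT and 0.779 in WT70 (4.15 ± 0.55, adjusted p = 8.18e-05), and *Col23a1* 48.8 and 41.3 in MUT and 7.62 in WT70 (2.56 ± 0.55, adjusted p = 0.00828). Both MUT lines were well above WT70 and above every WT library of day 5 for both genes. *Lamb3* had 6.30 and 4.95 CPM in MUT and 1.84 in WT70 (1.61 ± 0.44, adjusted p = 0.0455), but was lost without either MUT line (adjusted p = 0.177 and 0.0766). In TPM the sign of *Lamb3* turned, at 1.23 and 1.11 TPM in MUT and 2.15 in WT70. *Col12a1* rose with 5.88 and 8.56 CPM in MUT and 2.06 in WT70 (1.81 ± 0.45, adjusted p = 0.0255), a call lost without CM69 (adjusted p = 0.161). *Col6a2* fell with 2.44 and 2.31 CPM in MUT and 6.29 in WT70 (-1.40 ± 0.34, adjusted p = 0.0183), lost without either line (adjusted p = 0.0898 and 0.117). *Col24a1* fell with 0.424 and 0.289 in MUT and 2.78 in WT70 (-2.94 ± 0.69), also lost without either line (adjusted p = 0.0780 and 0.153).

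None of the 10 core chains was called between MUT and WT70 on day 5. *Col4a1* had 667 and 875 CPM in MUT and 563 in WT70 (0.45 ± 0.45, adjusted p = 0.746). *Lama1* had 441 and 618 in MUT and 344 in WT70 (0.62 ± 0.61, adjusted p = 0.744) and *Lamc1* 581 and 735 in MUT and 569.5 in WT70 (0.21 ± 0.22, adjusted p = 0.769). Both MUT lines were above WT70 for each of them, without a call. *Col18a1* had 309 and 314 CPM in MUT and 401 in WT70 (-0.37 ± 0.11, adjusted p = 0.0850). *Col1a2* had 20.1 and 23.9 in MUT and 40.7 in WT70 (-0.89 ± 0.38, adjusted p = 0.260). *Col1a1* had 29.8 and 40.9 in MUT and 20.9 in WT70 (0.76 ± 0.33, adjusted p = 0.255). The *Col1a2* to *Col1a1* CPM ratio was 0.586 and 0.674 in MUT and 1.95 in WT70. The ratio has no test here. Set against WT7 and WT34 of other experiments, which mixes genotype with experiment, MUT on day 5 called 15 higher and 8 lower, among them all 6 members named, with 4.65% and 3.94% of all tested genes called higher and lower in that comparison. On day 3 these controls gave 9 higher and 2 lower (background 2.02% and 1.10%).

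The KO and MUT effects were compared directly, each against its own WT. On day 3 the difference of the effects called 0 members by edgeR (background 0.227% higher and 0.167% lower), with 8 at an unadjusted p under 0.05 and 0 by DESeq2. On day 5 it called 4 members, all with the larger value in KO, and 0 the other way (background 1.14% and 2.48%). They were *Lama2* (3.82 ± 0.97, adjusted p = 0.0161), *Lama4* (2.04 ± 0.54, adjusted p = 0.0213), *Col9a3* (1.75 ± 0.36, adjusted p = 0.00283) and *Col8a2* (2.27 ± 0.57, adjusted p = 0.0161), a chain of hexagonal networks in the eye. The *Lama4* call was lost without KO1 of experiment 1 or without either MUT line (adjusted p = 0.0544 to 0.0709), and that of *Col8a2* without CM59 (adjusted p = 0.0879). Without the WT library that stood apart the count was 7, with 6 higher and 1 lower. Without KO1 of experiment 2 it was 6, with 5 higher and 1 lower. All 4 were among them in both cases. *Lama2* reached 2.60 and 1.88 CPM in MUT and 0.779 in WT70, and its call was lost without CM69 (3.61, adjusted p = 0.0659). *Col9a3* was not higher in MUT, at 3.76 and 2.98 in MUT and 5.23 in WT70. *Col8a2* had 2.92, 3.08 and 3.84 CPM in KO, 2.42, 2.47 and 0.877 in WT, 1.38 and 1.92 in MUT and 4.505 in WT70. It was called neither in KO against WT nor in MUT against WT70. Its difference of effects leans on the lone WT70 library, which cannot be left out. For *Col13a1* the difference of the effects was -0.10 ± 0.59 (95% interval -1.26 to 1.06, adjusted p = 0.993), and for *Col23a1* 1.47 ± 0.60 (95% interval 0.29 to 2.65, adjusted p = 0.184). For *Col18a1* it was -0.69 ± 0.14, adjusted p = 0.00303, under the fold threshold.

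**Figure D5:**
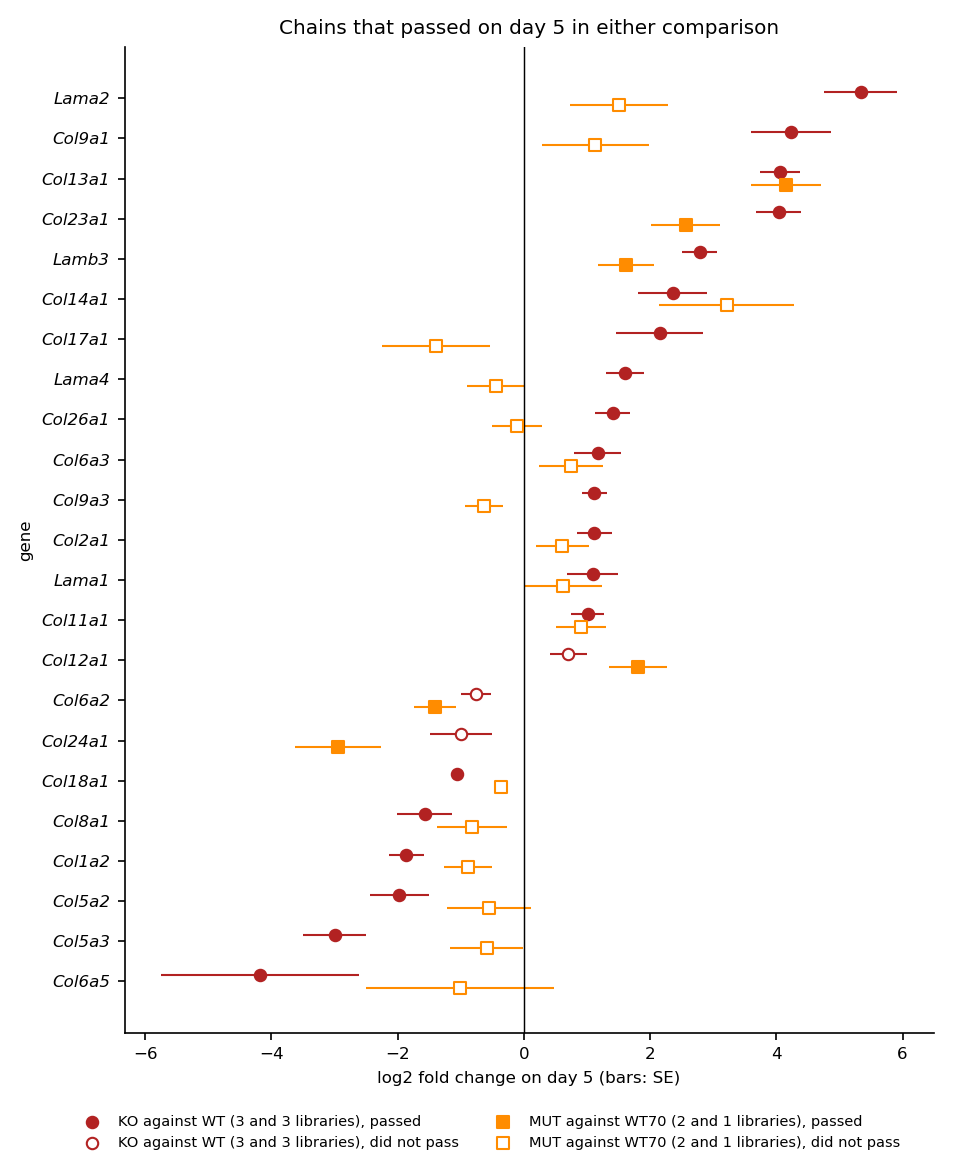
Log2 fold change on day 5 of 23 of the 24 chains that passed in KO against WT (circles) or MUT against WT70 (squares), with bars of 1 SE, filled where the comparison passed. *Col13a1* lies near 4 in both comparisons, and *Lama2* of KO lies above 5.

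The KO effect itself changed between days 3 and 5 for 10 members, 9 upwards and 1 downwards (background 5.18% and 4.25%). Beside *Lama1*, *Lamb3*, *Col2a1* and *Col1a2*, these were *Col23a1* (3.65 ± 0.59, adjusted p = 4.81e-05), *Lama2* (3.51 ± 0.88), *Col13a1* (1.72 ± 0.54), *Col6a1* (1.35 ± 0.38), *Col9a3* (1.30 ± 0.26) and *Lama4* (1.21 ± 0.40). Experiment 2 alone, with 1 library per genotype on day 5, did not call the same set of members. *Col6a1* had 8.04, 8.65 and 9.84 CPM in KO and 3.56, 5.64 and 5.13 in WT on day 5 and 1.39, 0.917, 1.82 and 3.17 in KO and 2.01, 2.30, 2.70 and 2.96 in WT on day 3. It was not called between KO and WT on any day. The *Col13a1* value was lost without WT34 of experiment 2 on day 3 (1.09, adjusted p = 0.358), and without WT7 or WT34 of experiment 1 on day 5 (adjusted p = 0.0570 and 0.0575), and was 2.78 without the WT library that stood apart. The *Lama4* value was lost without 5 different single libraries (0.83 to 1.14, adjusted p of at least 0.0687), and that of *Col2a1* was 1.11 (adjusted p = 0.0243) without KO1 of experiment 2 on day 5.

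Genes that make, process, bind or degrade these chains were counted in the same comparisons. On day 5 KO against WT called 1 higher and 1 lower of 17 modification and folding genes, 2 and 3 of 14 processing and cross-linking genes, 5 and 2 of 14 basement membrane partners, 1 and 1 of 13 receptors and 3 and 1 of 9 proteases and inhibitors, beside 5.99% higher and 5.73% lower over all genes. Median log2 fold changes were 0.18, 0.38, 0.85, -0.08 and 0.30 in this order, against -0.01 over all genes. *P3h2*, a prolyl hydroxylase that acts on type IV collagen, rose (2.39 ± 0.24, adjusted p = 1.98e-08). Among the partners *Frem1* (3.88 ± 0.36), which anchors the epidermal basement membrane, and *Egflam* (3.32 ± 0.38), a dystroglycan ligand, rose, while *Frem2* (-1.11 ± 0.08) and *Npnt* (-1.36 ± 0.14), an integrin ligand, fell. *Ddr2*, a receptor for fibrillar collagen, rose (3.58 ± 0.40) and *Itga7*, a laminin receptor of muscle, fell (-1.52 ± 0.43), a call lost without WT7 of experiment 1 (-0.94, adjusted p = 0.123). The cross-linking enzyme *Loxl1* rose (1.56 ± 0.22) and *Lox* fell (-1.62 ± 0.37). In MUT on day 5, *Ddr2* (2.56 ± 0.59), *Frem1* (2.87 ± 0.57), *Smoc2* (2.27 ± 0.57), *Fn1* (1.16 ± 0.24) and *Adamts14* (1.72 ± 0.41) rose against WT70. None of the 67 genes fell, beside 1.26% higher and 0.611% lower over all genes. The calls of *Smoc2* and *Adamts14* were lost without either MUT line (adjusted p = 0.0514 to 0.0832), and that of *Ddr2* without CM59 (adjusted p = 0.0519).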

How the data were processed

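Bulk RNA-seq libraries were trimmed with Trim Galore 0.6.4 and quantified by the authors with Salmon 0.14.1 against GENCODE M23 (mm10), and the transcript estimates were summed per gene with tximport. The deposited expected counts (estimated counts per gene, 73.8% whole) were rounded to whole numbers for the tests. The TPM values deposited by the authors, which are per transcript length and sum to 1000000 in a library, were used for levels between genes. The submitters' notes name R 4.0.2 and DESeq2 1.30.0.

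Counts were tested with edgeR 4.0.16 in R 4.3.3 (TMM scaling, filterByExpr with a count minimum of 10 and a total minimum of 15, quasi-likelihood fit of 16 group means and a term for experiment 2, 19 residual degrees of freedom, 21601 genes, Benjamini-Hochberg adjustment over all of them). CPM are TMM-scaled, SE is the log2 fold change over the root of the F statistic and 95% intervals are normal, and bounds from 0 counts use a floor of 3 counts over the group. The fit was tested on simulated data. Tested alternatives were DESeq2 1.42.0, limma 3.58.1 on log2(TPM + 1) and log2(TPM + 0.1) with a filter of 1 TPM in 2 libraries and on log2(TPM + 1) without it, RLE scaling, no filter, other sets of libraries, a block for cell line and leaving out each library. Groups follow the labels. Replicate numbers follow accession order and pair nothing, but the labels name the lines, which recur over days. Deviations of the same line on different days correlated at -0.00996 to 0.0457 over all 21601 genes. Single chains did keep a line difference. WT34 was above WT7 in 7 of 7 pairs for *Col4a1*, *Col4a2*, *Lama1*, *Lamb1* and *Lamc1*, and in 4 of 7 for *Lama5* and *Col18a1*.

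Named were 10 core chains (*Col4a1*, *Col4a2*, *Lama1*, *Lama5*, *Lamb1*, *Lamc1*, *Col1a1*, *Col1a2*, *Col2a1*, *Col3a1*), then called members with at least 5 CPM in the higher group by size of change, and up to 4 genes per partner list by smallest p. The members and lists were chosen with earlier results of these data known. Positions come from GENCODE M21, in which all 55 members were found. The values of 1 member are not reported here, although it enters the counts.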

Additional observations from a re-analysis of the deposited data

Results flagged for a closer look

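The KO and WT groups of 4 libraries on day 3 were checked for a library far from the others in 21 members. Of these 42 checks 2 found one, and chance gives about 1 in 20. The WT34 library of experiment 2 was the highest of the 4 WT libraries on day 3 for *Col13a1* (0.591 CPM, against at most 0.216 in the others), and the WT7 library of that experiment for *Col9a2* (9.31 CPM, against 6.61 to 7.01 in the others).

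The effect of KO differed from that of MUT on day 5, each against its own WT, for *Lama2* by 3.82, *Col9a3* by 1.75, *Lama4* by 2.04 and *Col8a2* by 2.27 on the log2 scale (edgeR's quasi-likelihood interaction test). The KO effect differed between days 5 and 3 for *Lama1* by 2.16, *Col2a1* by 1.71, *Col23a1* by 3.65, *Lama2* by 3.51, *Lamb3* by 3.10, *Col13a1* by 1.72, *Col6a1* by 1.35, *Col9a3* by 1.30 and *Lama4* by 1.21, and for *Col1a2* by -1.29, in the same test.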

How the results depend on the processing

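Counts of called members below are those of KO against WT unless another comparison is named. On day 0 (2 called) a fold threshold of 1.5 on the log2 scale, RLE scaling, no experiment term, the replicate block for cell line, DESeq2 and a fit to only the compared libraries each gave 1, and limma on log2(TPM + 1) gave 0 with or without the filter. On day 1 (1 called) all 3 limma fits, DESeq2, the compared libraries alone and experiment 2 alone gave 0. On day 2 (0 called) the unfiltered counts and DESeq2 gave 1. For limma on log2(TPM + 1), on log2(TPM + 0.1) and on the unfiltered values, in this order, the counts were 0, 1 and 0 on day 3 (7 called), 5, 7 and 4 on day 4 (15), 5, 5 and 5 on day 5 (21), 3, 1 and 3 for MUT on day 5 (6), 8, 16 and 8 for WT between days 3 and 0 (27), 10, 16 and 10 for KO between days 3 and 0 (28), and 2, 1 and 2 for KO minus MUT on day 5 (4). With log2(TPM + 1) filtered and unfiltered, WT between days 5 and 3 (24) gave 10 and 9, and KO between days 5 and 3 (32) gave 14 and 13. Experiment 2 alone gave 3 on day 3, 12 on day 5 and 5 for the change of the KO effect (10), where a fold threshold of 1.5 gave 6, log2(TPM + 0.1) 6 and unfiltered TPM 5. On day 5 a fold threshold of 1.5 gave 13. For MUT on day 3 (0) unfiltered counts gave 1, the compared libraries 2 and WT7 and WT34 as controls 11, and on day 5 no experiment term gave 3 and those controls 23. KO minus MUT gave 4 on day 3 (0) and 10 on day 5 with unfiltered counts. Leaving out each library gave 0 to 1 on day 0, 0 to 2 on day 1, 0 to 0 on day 2, 4 to 7 on day 3, 9 to 13 on day 4, 16 to 19 on day 5, 0 to 0 and 2 to 3 for MUT on days 3 and 5, 22 to 26 and 21 to 24 for WT over time, 23 to 29 and 29 to 33 for KO over time, 0 to 0 and 2 to 8 for KO minus MUT on days 3 and 5, and 8 to 12 for the change of the KO effect. The replicate block moved no other count by over 1.5 times. Under limma on TPM signs turned for *Lama2* on days 3 and 4 (-0.023 and -0.063, unfiltered), *Col5a2* on day 5 (0.15 for log2(TPM + 1), filtered or not, and 0.22 for log2(TPM + 0.1)), *Lamb3* in MUT on day 5 (-0.54, -0.54 and -0.83), and, in WT between days 3 and 0, *Col26a1* (0.030, 0.030 and 0.34), *Lama2* (0.047, unfiltered) and *Col24a1* (-0.035, filtered or not), and the cause was not tested. Depth limits the chains under about 1 CPM, and 1 WT70 library per day limits the MUT comparisons.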
